A study of Gossypium hirsutum with 3 samples.

Results

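A pair of cotton genes whose best protein matches carry LIM domains, Contig15981 (matched to the transcription factor lim1 of Eucalyptus camaldulensis) and Contig11492 (matched to a LIM transcription factor of Arabidopsis thaliana), were measured in fiber initials and in elongating fiber of Gossypium hirsutum. They are 2 of the 11143 genes on the array, and the only 2 of 1021 genes with a description in the study's additional file that are described as LIM proteins. The study states that this file holds genes that varied between its samples, so LIM genes that did not vary could be missing from it. Every spot that bears either gene name was used. Each gene has 4 probes with 1 spot each, so that 8 of 42034 gene spots belong to them. Both genes were picked because their mRNA rose from 1 dpa to 10 dpa fiber on these same arrays (dpa, days post anthesis), so their ratios are given here as a description and without a test.

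The LIM domain is a zinc-binding fold that holds proteins together rather than a catalytic unit. In the cytoplasm, small plant LIM proteins bind and bundle actin filaments, the cables along which vesicles travel in a growing fiber, and in the nucleus tobacco and Eucalyptus lim1 proteins are known to act on promoters of phenylpropanoid genes, whose enzymes make the precursors of lignin and flavonoids. A cotton fiber is a single trichome of the ovule epidermis that first bulges from the surface and then elongates over many days.

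The groups were field-grown fiber initials of 1 dpa and elongating fiber of 10 dpa, for which the labels name no treatment. Polyribosomal RNA was isolated from both, after the 1 dpa fiber had been shaken from frozen ovules with glass beads and the 10 dpa fiber had been dissected from the ovule, so the way of collection and the stage cannot be told apart. The methods name the cultivars DES119 and ST4793R without assigning them to arrays. Both stages were labelled with different dyes and hybridized together on each of 3 arrays, here called replicates 1 to 3 in no order, with the dyes exchanged on replicate 2.

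On the 3 arrays, the median intensity of gene spots ranged from 222 to 362 in green and from 234 to 357 in red. The methods state 3 biological replications harvested on different days, but the array files name 2 RNA codes for each stage. A single 1 dpa code stands on replicates 1 and 2, a single 10 dpa code stands on replicates 1 and 3, and replicates 2 and 3 have no code in common. If a code marks an extract, p-values measure a spread that is partly technical. Across genes, the log2 ratios of replicates 2 and 3 correlated at r = 0.839, and those of replicate 1 at 0.575 with replicate 2 and 0.601 with replicate 3, so the array that shares a code with each of the others stood apart from them. Genes are not independent replicates, and what set replicate 1 apart was not tested. Of the study's benchmark genes, 3 are given here as a description. The study itself reports all 3 as increased in 10 dpa fiber from these arrays, so they are no independent check of the tissue. It also reports benchmark genes that were not increased in 10 dpa fiber, among them a cellulose synthase, and these are not given here. The beta-tubulin Ghtub (GhBM356393) rose 6.30-fold in 10 dpa fiber, the RD22-like gene GhRDL rose 1.77-fold and the serine carboxypeptidase GhSCP rose 1.70-fold (adjusted p = 0.000685, 0.0146 and 0.0179 from limma). The rises of GhRDL and GhSCP lay below the 2-fold difference that the study asks for. Their probe means ranged from 0.03 to 1.33 (GhRDL) and from 0.35 to 1.11 (GhSCP) on the log2 scale, against 2.50 to 2.86 for Ghtub. All 3 calls were lost under scaling between arrays and under the F-test of the methods, GhRDL and GhSCP also without the array as block, GhRDL without replicate 2 (adjusted p up to 0.351 over its alternatives) and GhSCP with median centring (up to 0.332).

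mRNA of Contig15981 was more abundant in 10 dpa fiber at each of its 4 probes on each of the 3 arrays. At probe 1 the intensity of the spot, in scanner units without any correction, was 337 in 1 dpa fiber and 1941 in 10 dpa fiber on replicate 1, 327.5 against 2003 on replicate 2, and 109 against 962 on replicate 3. At probe 2 it was 298 and 1900.1 on replicate 1, 331 against 1999.6 on replicate 2, and 119 against 929.9 on replicate 3. At both probes replicate 3 was the dimmest array in either stage, and every 10 dpa value lay above every 1 dpa value.

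Probe 3 of Contig15981 gave 439 in 1 dpa fiber and 3205 in 10 dpa fiber on replicate 1, 301 against 2812 on replicate 2, and 142 against 1308 on replicate 3. Probe 4 gave 543 and 4234 on replicate 1, 904 against 3579 on replicate 2, and 415.5 against 2514 on replicate 3. At none of the 4 probes did the values of the stages overlap, even when values of different arrays were set side by side. The direction was the same whether 10 dpa cDNA carried the red dye (replicates 1 and 3) or the green dye (replicate 2).

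**Figure D1:**
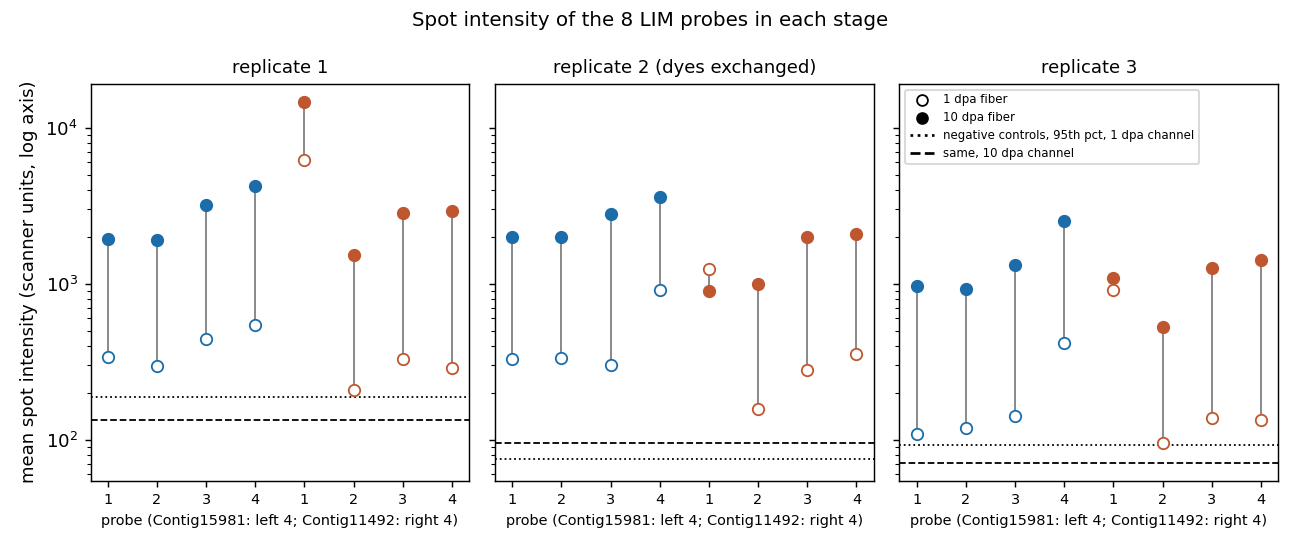
Mean spot intensity (scanner units, log axis) of the 8 LIM probes on each array, with Contig15981 in blue, Contig11492 in orange, open circles for 1 dpa fiber, filled circles for 10 dpa fiber, and dotted (1 dpa) and dashed (10 dpa) lines for the 95th percentile of negative controls in that channel. At 7 probes the filled circle lies far above the open one on all 3 arrays, and at probe 1 of Contig11492 they lie closer together, with the open circle on top on replicate 2 (1235 against 898).

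After correction for background and dye, the log2 ratio of 10 dpa to 1 dpa fiber of Contig15981 averaged over its 4 probes came to 2.64, 3.05 and 2.94 on replicates 1, 2 and 3. The mean over arrays was 2.88 ± 0.21 (SD, n = 3 arrays), a 7.34-fold difference. Fewer cells that express the gene and less mRNA in each cell cannot be told apart in such samples. Single spots ranged from 5.16-fold (probe 4 on replicate 3) to 12.6-fold (probe 3 on replicate 2). On replicates 2 and 3, which share no RNA code, the mean was 7.96-fold. Probe means were 2.91 ± 0.36 at probe 1, 2.91 ± 0.18 at probe 2, 3.18 ± 0.49 at probe 3 and 2.51 ± 0.16 at probe 4 (SD, n = 3 arrays). Probe 4 had the smallest ratio on replicates 2 and 3, and on replicate 1 it lay within the range of the other 3.

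The picture for Contig11492 differed with the probe. Probe 3 had an intensity of 327 in 1 dpa fiber and 2817 in 10 dpa fiber on replicate 1, 279.7 against 1977.5 on replicate 2, and 138 against 1265 on replicate 3. Probe 4 had 289 and 2919 on replicate 1, 356 against 2093 on replicate 2, and 134 against 1424 on replicate 3. Probe 2 had 208 and 1531 on replicate 1, 156.5 against 1001 on replicate 2, and 95.1 against 528 on replicate 3. These 3 probes were brighter in 10 dpa fiber on every array, with no overlap between the stages.

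Probe 1 of Contig11492 did not share this pattern. Its intensity was 6239 in 1 dpa fiber and 14657 in 10 dpa fiber on replicate 1, 1235 against 898 on replicate 2, and 913 against 1087 on replicate 3. The stages overlap at this probe, and the uncorrected ratios of 10 dpa to 1 dpa fiber were 2.35, 0.727 and 1.19 on these arrays. After correction its log2 ratios were 0.30, -0.03 and 0.00 on replicates 1, 2 and 3, with a mean of 0.09 ± 0.18 (SD, n = 3 arrays), which is less than its spread. The mean depended on the processing. It was 0.35 with median centring and 0.34 with plain background subtraction and no normalization. With no background correction it was 0.08, and with scaling between arrays 0.04.

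The same probe also differed between arrays in a way that the other LIM probes did not. In 1 dpa fiber its intensity on replicate 1 was 5.05 times that on replicate 2, although both arrays bear the same code of 1 dpa RNA, whereas the other 7 LIM probes ranged from 0.601 to 1.46 times and the median gene spot was at 1.39 times. In 10 dpa fiber it was 16.3 times that on replicate 2, against 0.95 to 1.53 times for the other 7 probes, and 13.5 times that on replicate 3, which bears the same code of 10 dpa RNA, against 1.68 to 2.90 times. Of all gene spots, 99.2% in 1 dpa fiber and 99.6% in 10 dpa fiber had a smaller ratio of replicate 1 to replicate 2 than this spot. Its local background on replicate 1 was 52.2 in the 1 dpa channel, within the 51.7 to 54.8 of the LIM spots of that channel. Without replicate 1, the log2 ratio of the probe was at or just under 0.

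**Figure D2:**
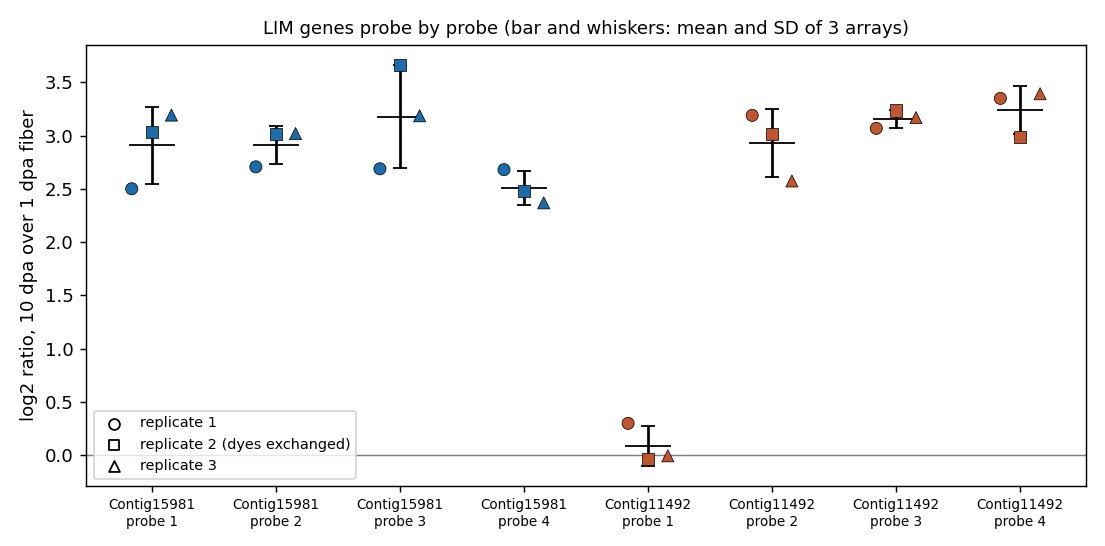
Log2 ratio of 10 dpa over 1 dpa fiber at each LIM probe after background correction and loess, with each array as a symbol and the mean and SD of 3 arrays as a bar with whiskers. The 4 probes of Contig15981 and probes 2 to 4 of Contig11492 have means between 2.51 and 3.24, and probe 1 of Contig11492 lies at 0.09.

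Probes 2, 3 and 4 of Contig11492 had mean log2 ratios of 2.93 ± 0.32, 3.16 ± 0.08 and 3.24 ± 0.22 (SD, n = 3 arrays), that is 7.61-fold, 8.92-fold and 9.46-fold. With all 4 probes the gene had log2 ratios of 2.48, 2.30 and 2.28 on replicates 1, 2 and 3, a mean of 2.35 ± 0.11 or 5.11-fold. Without probe 1, a choice made after its values were seen, the mean was 3.11 ± 0.08 or 8.62-fold. The small spread between arrays in the value of 4 probes thus stands beside a range of 3.15 on the log2 scale among the probe means. On replicates 2 and 3 alone the differences were 4.90-fold with all probes and 8.35-fold without probe 1.

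The order of the 2 LIM genes depended on that probe. With all probes Contig15981 exceeded Contig11492 on the log2 scale by 0.17, 0.74 and 0.66 on replicates 1, 2 and 3, a mean of 0.52 ± 0.31 (SD, n = 3 arrays). Without probe 1 of Contig11492 the difference was -0.56, -0.03 and -0.10 on the same arrays, with a mean of -0.23 ± 0.28, and with the median of probes in place of the mean it was -0.06. Among all genes ranked by the mean log2 ratio, Contig15981 was number 10 and Contig11492 number 36, and the value of Contig11492 without probe 1 would be number 5. Both genes had a log2 ratio above 0 on all 3 arrays, which was so for 22.4% of all genes, and both were past a mean rise of 4-fold, as were 0.61% of all genes. The genes were chosen on this contrast, so nothing is read from these counts.

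Whether the levels were measurable was judged against the negative control spots of the same channel and array. All 24 values of the LIM spots in 1 dpa fiber and all 24 in 10 dpa fiber lay above their 95th percentile. In 10 dpa fiber they were 7.42 to 110 times as bright as it. In 1 dpa fiber the margin was narrower, and 5 of 8 spots on replicate 1 and 6 of 8 on replicate 3 were less than 2 times as bright as that percentile, against 0 of 8 on replicate 2. The narrowest margin was that of probe 2 of Contig11492 on replicate 3, at 1.03 times. Against the mean plus 2 SD of the negative controls, 23 of the 24 values in 1 dpa fiber and all 24 in 10 dpa fiber lay above. The median negative control in the 1 dpa channel was 164, 62.9 and 83.7 on replicates 1, 2 and 3, above the local background of the LIM spots there (41.5 to 54.8), and this difference was not taken off. For 1 dpa spots near the negative controls, such as probe 2 of Contig11492 at 208 on replicate 1 and 95.1 on replicate 3, the folds are therefore uncertain in size. They also depend on how the local background is treated: at probe 1 of Contig15981 on replicate 3, the uncorrected ratio was 8.81-fold, plain subtraction of the local background gave 14.3-fold and the corrected and normalized value was 9.14-fold.

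The disagreement among the probes of Contig11492 was set beside that of the 8604 genes with 4 probes. The SD among the probe means of a gene was 0.28 for Contig15981, above the median of 0.17 over these genes, 76.3% of which had a smaller one. Over the 308 of them with a mean rise of at least 2-fold the median was 0.34, and 39.3% had a smaller SD. It was 1.52 for Contig11492, and 2 of the 8604 genes had a larger one. A single probe at least 2 away on the log2 scale from the median of 3 others that lay within 1 of each other was found in 20 genes (0.232%), of which Contig11492 is 1, and in 8 of the 308 genes with the 2-fold rise (2.6%).

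**Figure D3:**
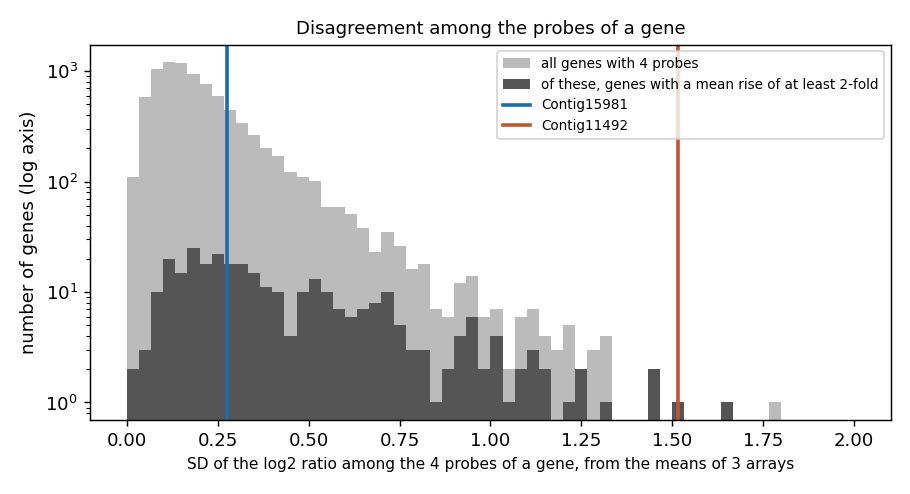
Histogram of the SD of the log2 ratio among the 4 probes of a gene, from means of 3 arrays, with the number of genes on a log axis. Pale bars are all 8604 genes with 4 probes, dark bars the 308 of them with a mean rise of at least 2-fold, and vertical lines mark Contig15981 (0.28) and Contig11492 (1.52), which lies at the far right of both distributions.

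The study's text names 18 transcription factors as changed between 1 dpa and 10 dpa fiber, 9 in each direction, and the LIM genes are 2 of the 9 named as higher. Of the other 7, all 7 rose at an adjusted p under 0.05 from limma. Of the 9 named as lower, all 9 fell. Over all genes 8.03% rose and 5.61% fell, 13.6% in all (4.59% and 1.71% with median centring). The median log2 ratio was 1.48 over the first list and -1.22 over the second, against -0.04 over all genes. Since both lists were drawn up by the study from these very samples, neither count is independent evidence of its direction.

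In size of rise, a gene matched to TCP-domain proteins (Contig1963), a family of plant growth regulators, stood between the LIM genes with all probes averaged, at a mean log2 ratio of 2.78 ± 0.44 over the arrays (SD, n = 3; adjusted p = 0.000996 from limma). Its probe means ranged from 1.94 to 3.79, and its values of 2.32, 2.81 and 3.20 for replicates 1 to 3 overlap those of Contig15981. It lay below both LIM genes without probe 1 of Contig11492 and with the median of probes (2.64 against 2.94 and 3.00), and level with Contig15981 without replicate 1 (3.00 against 2.99). The homeodomain gene Contig549, matched to a BEL1-related protein, rose 2.91-fold with values of 1.49, 1.47 and 1.66, which lie below every array value of either LIM gene. A match to the MYB-like factor DVL1 (Contig7886, 1 probe) rose 2.88-fold. Contig18656, matched to a hypothetical protein, rose 2.78-fold with values from 0.83 to 2.29, and its call ended without replicate 1 and without the array as block (adjusted p up to 0.358 over its alternatives).

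Among the 9 that fell, the homeobox gene Contig13 was the lowest, with a mean log2 ratio of -2.39 ± 0.61 over the arrays (SD, n = 3; adjusted p = 0.00237 from limma). The homeobox match roc1 (Contig3089) fell 4.02-fold, the growth-regulating factor match Contig1984 fell 3.37-fold, and the zinc finger homeobox match WTOV_01-01-18R_G01 fell 2.90-fold. Under scaling between arrays and under the per-gene F-test, 0 of the 16 genes were past the adjusted p. An unadjusted p of 0.05 was passed by 16 and 10 of them.

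**Figure D4:**
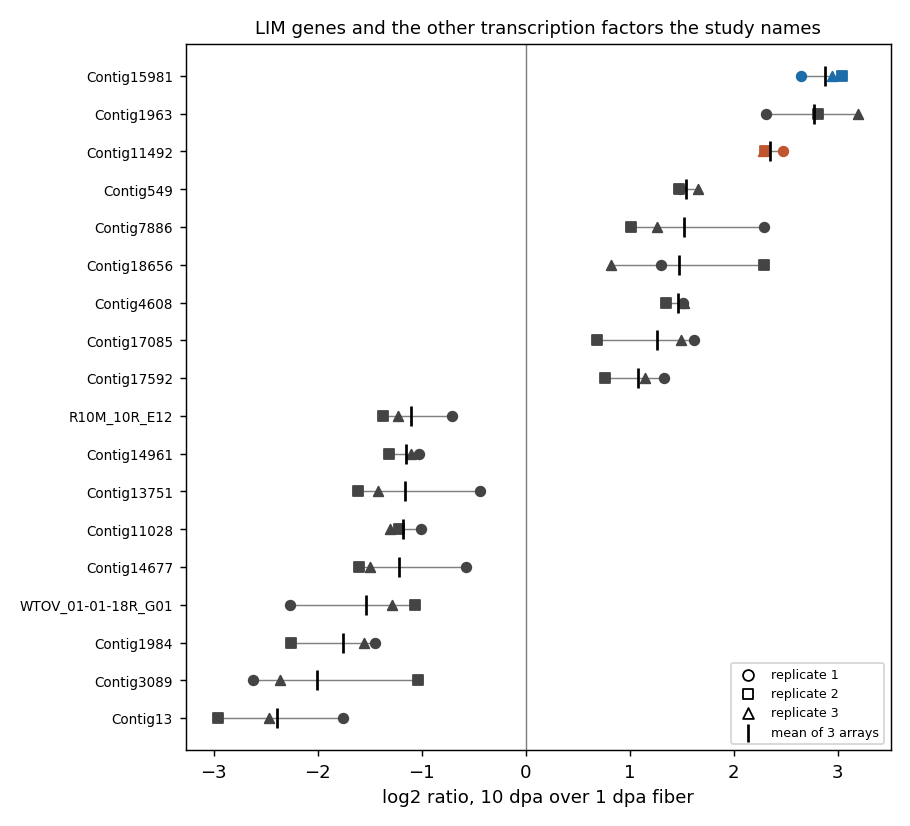
Log2 ratio of 10 dpa over 1 dpa fiber of the LIM genes (coloured) and the other 16 transcription factors named by the study, with each array as a symbol and the mean of 3 arrays as a bar. Contig15981 has the highest mean (2.88), Contig1963 (2.78) and Contig11492 (2.35, all probes) follow, and the next gene, Contig549, lies at 1.54.

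Since plant LIM proteins are known as actin bundlers, other genes of the actin cytoskeleton were listed from the additional file. Of 10 such genes, 5 rose and 1 fell at an adjusted p under 0.05 from limma, and the other 4 missed it. Over all genes 8.03% rose and 5.61% fell. The median log2 ratio of the list was 0.86, against -0.04 over all genes. A fimbrin-like gene (TMIRS_102_E08.F), of a family that also cross-links actin filaments, rose 3.69-fold with a mean log2 ratio of 1.88 ± 0.31 over the arrays (SD, n = 3; adjusted p = 0.00142 from limma), and a gene matched to villin 2 (Contig16351), which bundles and severs actin filaments, rose 2.55-fold. A gene matched to a myosin heavy chain (Contig14543) rose 3.40-fold and an actin-like gene (Contig4681) rose 3.11-fold.

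Genes matched to actin itself gave mixed values. An actin gene (Contig5392), named here after its values were seen as the single member that fell, fell 1.76-fold with log2 ratios of -0.40, -0.87 and -1.18, with an adjusted p of 0.0294 from limma that was 0.422 at its highest over the alternatives. The actin genes Contig4588 and Contig1771 had log2 ratios of 0.45 ± 0.14 and -0.48 ± 0.41 (SD, n = 3 arrays) and did not pass the test. The other uncalled members, both matched to myosins, had 0.94 ± 0.67 (TMIRS_168_G01.F, adjusted p = 0.0593 from limma, past the threshold in 5 of 12 alternatives) and 0.28 ± 0.52 (Contig3026). All 4 uncalled genes are named here after their values were seen. The call for Contig5392 ended with median centring, with plain background subtraction, without the array as block and without replicate 3. Under scaling between arrays and under the per-gene F-test, 0 of the 10 genes were past the adjusted p. An unadjusted p of 0.05 was passed by 8 and 6 of them. The additional file's genes were chosen on these samples, and the study states that the file lists those that varied more than 2-fold. Neither the share called nor its direction is therefore independent evidence.

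Genes of phenylpropanoid and lignin synthesis, the pathway tied to lim1 in tobacco and Eucalyptus, went both ways. The additional file holds 8 such genes. At an adjusted p under 0.05 from limma 3 of them rose and 3 fell, the other 2 missed it, and the median log2 ratio was 0.32, against 13.6% called in either direction and a median of -0.04 over all genes. A laccase match (TMIRS_008_E06.F), of a family of oxidases that couple lignin precursors, rose 5.13-fold with log2 ratios of 2.19, 2.24 and 2.65 (adjusted p = 0.000744 from limma). These ratios overlap those of Contig11492 with all probes, and the probe means of the laccase match ranged from 1.295 to 2.91. A cinnamoyl-CoA reductase match (Contig1778), an enzyme of the lignin branch, rose 1.90-fold (its call ended with the median of probes and without replicate 1), and another one (Contig13096) fell 2.23-fold. Probe means on the log2 scale ranged from 0.88 to 0.98 for Contig1778 and from -1.64 to -0.25 for Contig13096.

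Phenylalanine ammonia-lyase (Contig5395), which opens the pathway, fell 2.00-fold with log2 ratios of -0.84, -1.17 and -0.98 (adjusted p = 0.00597 from limma). Its probe means ranged from -1.68 to -0.26. The matches to 4-coumarate:CoA ligase, named after their values were seen, split, with Contig1 lower at a log2 ratio of -0.67 ± 0.22 and HYP3_01-01-29R_D06 higher at 0.75 ± 0.14 (SD, n = 3 arrays). Both of these calls ended with plain background subtraction, without the array as block and without replicate 3, and that of Contig1 also with median centring. The caffeic acid O-methyltransferase match (Contig3634) had 0.17 ± 0.60 and the cinnamyl-alcohol dehydrogenase match (Contig5358) 0.48 ± 0.14, and neither passed. These genes too were chosen by the study on these samples. Under scaling between arrays and under the per-gene F-test, 0 of 8 were past the adjusted p, with 7 and 6 past an unadjusted p of 0.05.

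**Figure D5:**
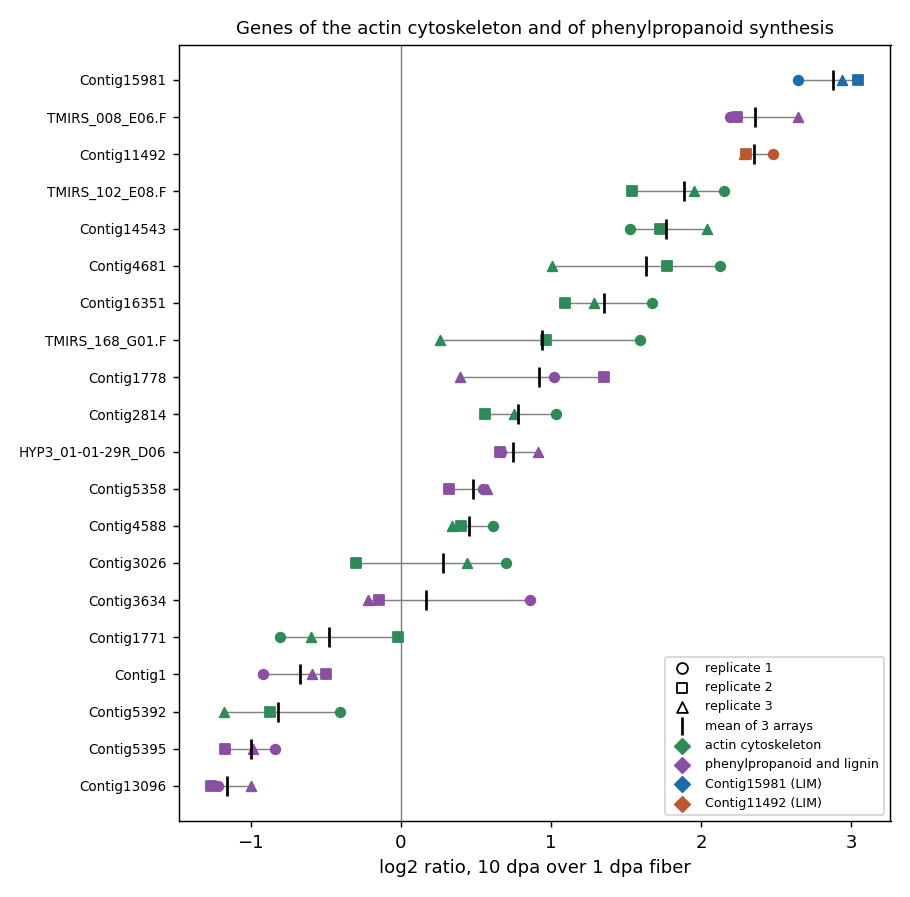
Log2 ratio of 10 dpa over 1 dpa fiber of 10 actin cytoskeleton genes, 8 phenylpropanoid and lignin genes and the LIM genes, with each array as a symbol and the mean of 3 arrays as a bar. Contig15981 (2.88) lies above all others, the laccase match TMIRS_008_E06.F (2.36) lies beside Contig11492 (2.35), and Contig13096 (-1.16) is the lowest.

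The genes whose ratios were most like those of the LIM genes were found by the Euclidean distance over the 3 array log2 ratios among all genes. The nearest to Contig15981 was an auxin-induced protein match (Contig9297, distance 0.12) with log2 ratios of 2.57, 3.03 and 3.04. It was followed by a ubiquitin match (TMIRS_222_G06.F, 0.24), a lipase match (HYP7_01-01-23R_C12, 0.25), a tonoplast intrinsic protein, a water channel of the vacuole membrane (Contig6612, 0.28), and an acid phosphatase match (Contig88, 0.32). The LIM genes were not each other's nearest. With all probes averaged, Contig11492 lay at a distance of 1.01 from Contig15981, number 32 in that order. Without probe 1 of Contig11492 the distance was 0.57.

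Nearest to Contig11492 with all probes were a saposin B match (TMIRS_109_A06.F, distance 0.22), a phosphofructokinase match of glycolysis (Contig14996, 0.28), a protein of no described function (Contig3467, 0.34), an aquaporin of the plasma membrane type (Contig3229, 0.34) and a NEP1-interacting protein match (Contig15910, 0.35). With probe 1 left out, the list was another one. A beta-galactosidase/galactanase match was then nearest at 0.34, an alanine:glyoxylate aminotransferase match (TMIRS_131_A03.F) came next at 0.47, and Contig15981 was number 4 at 0.57.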

How the data were processed

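Members and gene lists were chosen with earlier results of these data known. The authors' scanner files, made with Agilent Feature Extraction, hold, per channel, an uncorrected mean intensity for every spot and another for the background around it. They also hold a deposited score that flags green spots well above background, which was set for all 24 LIM values. The deposited table of log2 ratios of red to green holds plain background-subtracted values, not centred and with the dye swap not turned (sorted values differed by at most 5e-10). Its identifiers match 0 probes, and it was not used further.

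Intensities were corrected with normexp (offset 50) and loess within arrays, with 2256 control spots at weight 0. Spots were averaged per probe and probes per gene, and 1 spot and 1 gene with variant names were merged into their genes. Log2 ratios were tested against 0 with lmFit and eBayes of limma 3.58.1 (R 4.3.3, jsonlite 2.0.0), adjusted by Benjamini-Hochberg over 11143 genes at a threshold of 0.05, with the array as block. The paper's ANOVA also needs the ovule arrays, which were not analysed here, and its methods name a probability of 0.05 without an adjustment. It was not rerun. The per-gene F-test run as an alternative took the 3 array ratios of a gene, averaged over its probes, with that gene's own variance alone. It was adjusted by Benjamini-Hochberg and does not stand for the study's ANOVA. A spot was above background past the 95th percentile of 314 negative control spots. Besides the LIM genes, the genes named are the 5 nearest to each, up to 4 called members of each list and uncalled members where a list had at most 3, and any other is marked as named after its values were seen. Descriptions are best matches from the additional file. Contig and probe sequences were not analysed here. The procedure was tested on simulated data.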

Additional observations from a re-analysis of the deposited data

How the results depend on the processing

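With 3 arrays, their number sets how precise a ratio can be. The log2 ratio of Contig15981 was above 0 in all 10 alternatives, from 2.76 to 3.14, and moved by more than the spread between arrays only with scaling between arrays (3.14). That of Contig11492 was above 0 in all 11. It moved to 2.23 with no background correction, 2.57 with plain background subtraction, 2.50 with scaling between arrays, 3.00 with the median of probes and 3.11 without its probe 1. The difference between the genes turned to -0.064 with the median of probes and to -0.23 without that probe. The SD among the probes of Contig11492 was 1.44 with no background correction, 1.41 with median centring, 1.64 with scaling and 0.16 without probe 1, an alternative added after the data had been seen. Plain background subtraction moved the median of all genes from -0.04 to -0.20.

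Over all genes 895 were higher and 625 lower in limma. The counts were 568 and 323 with plain background subtraction, 512 and 191 with median centring, and 547 and 401 without the array as block. Under scaling between arrays and under the per-gene F-test, 0 were higher and 0 lower, for all genes and for each list. At an unadjusted p under 0.05 there were 2697 and 1811 genes, against 2773 in limma as reported. Leaving out a replicate gave 803 to 979 higher and 447 to 1212 lower. The single lower actin gene became 0 with plain subtraction, median centring and no array block, and 0 to 2 without a replicate. The caffeic acid O-methyltransferase match Contig3634 ranged from -0.18 without replicate 1 to 0.36 without replicate 3. The causes were not tested. The ratios reported are paired by array, since both stages share each one. The labels number no replicates, so no other pairing was fitted.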

Other observations

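Contig11492 is 1 of 20 genes with a single probe apart from the other 3. In 9 of these 20 genes the single probe lay nearer to 0 than the other 3, as it did for Contig11492. All 8 of the 20 with a mean rise of at least 2-fold are among these 9, which a choice by the mean favours. Contig1481, described as a WD-40 repeat protein, is another of the 20, with its single probe at -0.09 and the median of its others at -2.57 on the log2 scale. Contig17748, described as a dirigent protein, had its single probe at 0.04 and the median of its others at 3.03, and Contig1440 had 0.04 and 2.97, beside 0.09 and 3.16 for Contig11492. All 3 were picked for mention once their values were known, and no explanation was tested.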
